A study of Bos taurus with 16 samples.

Results

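The comparison set blood taken at day 60 and stimulated with lipopolysaccharide (LPS) against blood taken at day 0, and it was defined by the sample titles: 8 arrays of the 16 in the series, 4 for LPS and 4 for day 0. The LPS group was whole blood of lactating female Holstein Friesian cows after 60 days of an oral probiotic pack (yeast culture with Enterococcus faecium, Lactobacillus acidophilus, Aspergillus oryzae and Bacillus subtilis products), to which 100 ng/ml of LPS was added ex vivo. The probiotic group, 4 arrays used here to divide the comparison into steps, was day 60 blood of the same arm without LPS. The day 0 group was blood drawn from cows of that breed before the supplement. All tubes held the anticoagulant ACD and stood for 30 min at 37 °C in 5% CO2. The study enrolled 10 cows, 5 per arm. RNA of the cows in a group was combined into 1 pool, and its arrays repeat the measurement of that pool, so p-values measure only the spread between arrays and not between cows. The labels mark the day 0 pool with the probiotic arm, and whether it also held RNA of the other arm was not settled by them. LPS and day 0 differ by both 60 days of supplement and the LPS itself, and the slides differed too, with LPS and day 0 scanned on different days, so day, supplement, LPS, slide and scan cannot be told apart in this contrast. LPS and probiotic arrays shared a scan day but not a slide.

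LPS is a cell wall component of Gram-negative bacteria. Blood monocytes and neutrophils sense it through CD14 and Toll-like receptor 4, which switch on NF-kB and MAP kinases. Immediate early genes such as FOS respond first, within minutes and without new protein synthesis, and inhibitors such as NFKBIA and DUSP1 follow and damp the signal. Chemokines and cytokines come next, so blood held for 30 min catches the opening of the response and little of its later part.

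Signal is given as log2 of the background-subtracted intensity divided by the array's 75th percentile over probes detected on all arrays compared (log2 scaled signal). A probe counted as detected where the scanner software called it well above background. On the 8 arrays, 5758 genes had a probe detected on all 4 arrays of at least 1 group. Of these, 4 rose and none fell at a Benjamini-Hochberg adjusted p under 0.05 in limma with a fold of at least 2 (0.0695% of genes tested), while 528 had an unadjusted p under 0.05. None of the 2109 genes detected on all 8 arrays passed in limma, with 192 at an unadjusted p under 0.05; with replicate number as a block these counts were 188 over all genes and 121 among the 2109. BOLA-DQA5, an alpha chain of the MHC class II DQ molecule of cattle, was the only one of the 4 with a gene symbol. It had 0.51, 0.24, 0.35 and 0.74 on the LPS arrays and lay at the detection floor, between -5.85 and -3.03, on the day 0 arrays. Its probe was kept through the LPS arrays only and its day 0 values are floor values, so no p-value is given for it.

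The arrays were not equally good over their surface or among replicates. Replicate 4 of both groups stood apart. Across probes detected on both arrays of a pair, its Spearman correlation was 0.46 to 0.51 with the other LPS arrays and 0.63 to 0.65 with the other day 0 arrays, whereas replicates 1 to 3 correlated at 0.85 to 0.92 within LPS and 0.92 to 0.97 within day 0 (probes are not independent replicates). A spike-in control RNA printed 32 times on each array was bright in the outer part of an array and dim over most of the middle. In the outer blocks its median was 221639, 231337 and 213908 scanner units on LPS replicates 1 to 3 and 5740 on replicate 4, and 80852, 85561 and 75882 units on day 0 replicates 1 to 3 and 13176 on replicate 4. In the middle its median was at most 452 units on any of these 8 arrays. Detected spots followed the same outline, with 64.3% to 65.4% of spots detected in the outer blocks and 23.0% to 33.2% in the rest on LPS replicates 1 to 3, against 42.0% to 44.9% and 10.9% to 14.7% on day 0 replicates 1 to 3. Over whole arrays, 34.4 ± 8.53% of spots were detected on LPS arrays and 17.9 ± 6.59% on day 0 arrays (SD, n = 4 each), a difference of 16.5 percentage points (two-sided exact permutation test, p = 0.0571, where the smallest possible p is 0.0286).

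**Figure D1:**
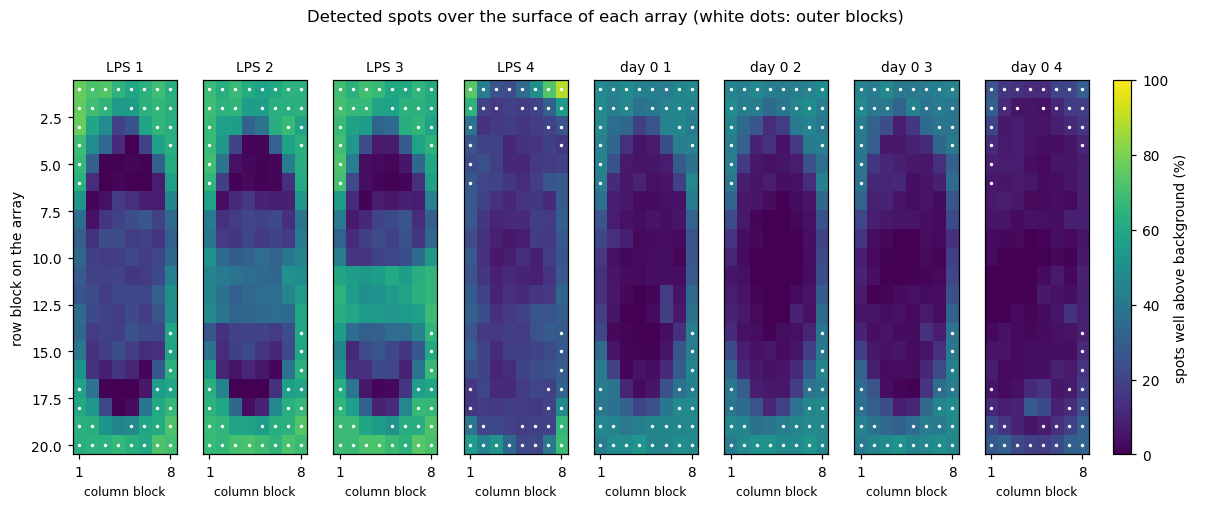
Share of spots well above background in 20 row by 8 column blocks of each array, LPS replicates 1 to 4 on the left and day 0 replicates 1 to 4 on the right, on a colour scale of 0 to 100%. White dots mark the 45 outer blocks; on replicates 1 to 3 these are bright around darker ovals, and replicate 4 of both groups is dim over most of its surface.

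Without replicate 4 of both groups, 10312 genes could be tested and 1406 passed (13.6%), 441 higher and 965 lower with LPS. Middle and outer probes contributed unequally: of the 4675 genes whose probe lay outside the outer blocks, 259 rose and 591 fell. Of the 5637 with a probe inside them, 182 rose and 374 fell. Among genes detected on all 6 arrays the counts were 55 and 306 of 1887 outside, and 135 and 362 of 3952 inside. The gene results below therefore rest on replicates 1 to 3 and on the 45 of 160 blocks in which at least 35% of spots were detected on each of the 9 LPS, probiotic and day 0 arrays used. This limit was set after seeing the data. These blocks hold 12033 of 43653 probes. Of the 6188 genes kept there, 4192 were detected on all 6 LPS and day 0 arrays, and 140 of them rose (3.34%) and 390 fell (9.3%), with a median log2 difference over the 4192 of 0.07. Detection reached lower on LPS arrays, with floors of -6.29 to -5.84, than on day 0 arrays, with floors of -4.13 to -3.74. A gene rising from below the day 0 floor thus could not enter these counts, whereas a gene falling below it could. Among genes with a mean log2 scaled signal under -2, 50 rose and 214 fell. The split over the 4192 genes also depended on scaling. It was 48 rises to 637 falls with the percentile taken over all probes, 87 to 442 with cyclic loess and 94 to 445 with quantile normalization. When the spike-in set the scale it was 1723 to 75, with a median of 0.88, since the spike-in was brighter on the LPS arrays by less than the bovine probes were. Each change below is thus relative to the bulk of detected genes, and with the spike-in the falls of IFITM1, DEFB7, PSMA4, TLN1, CAPG, CASP8, BAX, CD4, PAX5 and THBS1 did not pass (log2 differences from -0.89 to -0.23). In a bulk sample, fewer cells of a type and less RNA per cell cannot be told apart.

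**Figure D2:**
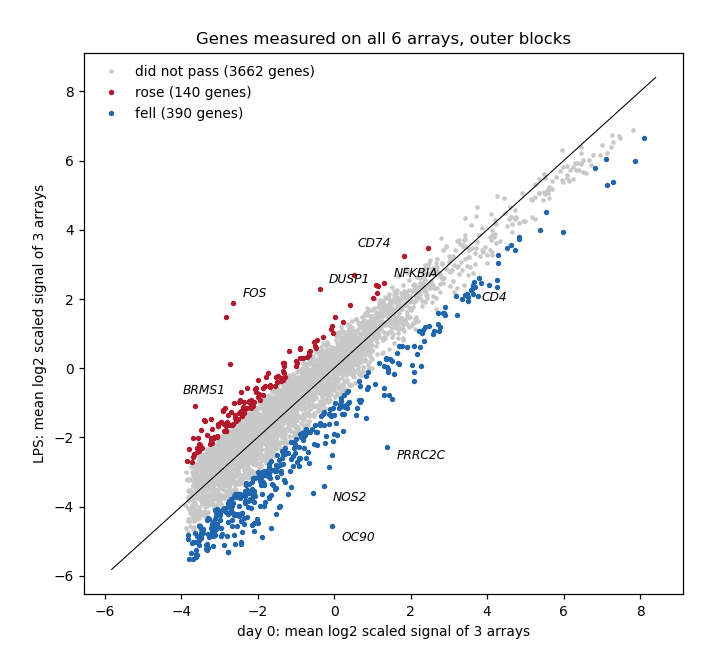
Mean log2 scaled signal of 3 LPS arrays (vertical axis) against that of 3 day 0 arrays (horizontal axis) for the 4192 genes detected on all 6, with the line of equality. Red points are the 140 genes that rose and blue points the 390 that fell; FOS and OC90 are labelled far above and below the line.

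Immediate early genes included the largest rise among genes with a symbol detected on all 6 arrays. FOS, a subunit of the AP-1 transcription factor, read 2.03, 1.80 and 1.85 on the LPS arrays, 0.59, 0.59 and 0.60 on the probiotic arrays and -2.71, -2.51 and -2.71 on the day 0 arrays. The groups did not overlap, and the LPS arrays were 23.2-fold above day 0 (log2 difference 4.54 ± 0.11, SE, adjusted p = 3.81e-08). DUSP1, a phosphatase that switches off MAP kinases, read 2.43, 2.18 and 2.22 with LPS, 1.66, 1.66 and 1.59 without it, and -0.45, -0.47 and -0.20 on day 0 (log2 difference from day 0 of 2.65 ± 0.12, adjusted p = 2.22e-06). ZFP36L2, which promotes decay of AU-rich messenger RNAs, averaged 2.35-fold higher with LPS than on day 0. FOSB, a close relative of FOS, went the other way: -1.99, -1.91 and -1.85 with LPS, -1.08, -1.25 and -1.36 without it, and -0.09, 0.06 and 0.03 on day 0 (log2 difference -1.91 ± 0.10, adjusted p = 4.06e-06). KLF6 had a difference of 0.60, short of 2-fold. Of the 34 genes on the immediate early list, 5 were detected on all 6 arrays, 3 rose and 1 fell, with a median of 1.23, beside 3.34% rises, 9.3% falls and a median of 0.07 over all 4192 genes. NR4A2, an orphan nuclear receptor on the same list, was above background on all 3 LPS arrays (-1.90, -2.10 and -1.92) and on none of the day 0 arrays, at least 3.93-fold higher. EGR1 had no kept probe in the outer blocks, and its middle probes, given without a test, differed. The first read -3.55, -3.32 and -3.41 with LPS, -2.84, -2.99 and -3.02 without it, and -2.12, -2.39 and -2.50 on day 0. The other was detected on all 3 LPS arrays and on no probiotic or day 0 array. A middle DUSP1 probe read -2.85 and -1.53 on 2 LPS arrays and -3.57, 0.07 and 0.31 without LPS, and was undetected on day 0.

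The oligonucleotides behind these readings are shown because probes of 1 gene differed in detection, position on the array and base composition, whose parts were not told apart. FOS has 3 probes of 60 bases, printed here 5′ to 3′ from the deposited table. The first lies in the outer blocks and gave the values above; the others lie in the middle.
FOS, outer blocks: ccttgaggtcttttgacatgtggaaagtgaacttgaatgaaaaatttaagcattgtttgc
FOS, middle, 45% GC: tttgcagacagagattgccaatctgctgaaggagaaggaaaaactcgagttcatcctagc
FOS, middle, 55% GC: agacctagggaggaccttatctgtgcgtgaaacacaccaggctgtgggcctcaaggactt
The middle probe with 45% GC was detected on 2 of 3 LPS arrays and on none of day 0. That with 55% GC was detected on all 3 LPS arrays, at -4.25, -2.15 and -2.73, and on none of day 0, where its readings were at the floor of -4.13 to -3.74; 1 of these LPS readings lies below that floor, so no fold can be given from it. On the probiotic arrays the 55% GC probe was detected on all 3, at -2.06, -2.27 and -1.95. It thus did not repeat the higher signal with LPS than without that the outer probe gave. The 45% GC probe was detected on 2 of 3 probiotic arrays. The outer probe has 35% GC.

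NFKBIA, the inhibitor that binds NF-kB in the cytoplasm and is itself an NF-kB target, read 2.33, 2.55 and 2.5 with LPS, 2.26, 1.94 and 1.95 without it, and 1.21, 1.31 and 1.43 on day 0. It was 2.21-fold above day 0 (log2 difference 1.14 ± 0.11, adjusted p = 2.33e-05), and 0.85 with the percentile over all probes, under the 2-fold limit. It was the only riser among the 8 NF-kB genes detected on all 6 arrays; RELA, RELB and NFKB2 had log2 differences of -0.39, -0.22 and -0.48, and none of these passed. Over all 4192 genes, 3.34% rose and 9.3% fell. None of 10 Toll-like receptor signalling genes passed, with a list median of 0.13. CD14, the LPS co-receptor, had -3.18, -3.72 and -3.65 on LPS arrays and -3.07, -2.81 and -2.08 on day 0 arrays, a difference of -0.86 ± 0.24 that missed the 2-fold limit. The outer TLR4 probe was dim on day 0 and its mean LPS signal was at least 0.29 above the day 0 floor, which did not pass.

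Among chemokines, CXCL2, which draws neutrophils, separated LPS from the unstimulated blood of the same arm. Its log2 scaled signal was -2.60, -2.80 and -2.68 on LPS arrays and -5.42, -5.30 and -5.40 on probiotic arrays, 6.39-fold (log2 difference 2.68 ± 0.10, adjusted p = 2.49e-06 in the fit of 9 arrays). The probe was kept through the LPS arrays. It was detected on all 3 probiotic arrays, but close to their floors of -5.68, -5.50 and -5.85, so the fold rests on dim readings. Day 0 arrays lay below detection, which bounds LPS at 2.38-fold above day 0 or more (a log2 difference of 0.96 with normexp and 0.95 with the percentile over all probes, under the limit); the floor of the day 0 arrays is higher than the probiotic readings, so no order between those 2 groups can be read. A second CXCL2 probe, in the middle, was detected on 1 of 3 LPS arrays and on no probiotic or day 0 array. CCL3, another chemokine, was 2.07-fold higher with LPS than without (adjusted p = 0.00149), again with day 0 below detection and a bound of 1.32 that missed the limit. The other outer CCL3 probe was detected on none of the 9 arrays. A middle CCL3 probe read -4.47, -4.12 and -2.71 with LPS and -4.04, -3.86 and -3.76 without, and so did not repeat the difference. IL1B, the inflammatory cytokine, behaved differently, at 0.22, 0.13 and 0.11 with LPS, 0.25, 0.24 and 0.22 without, and -0.86, -0.66 and -0.89 on day 0. Its difference from day 0 was 0.96 ± 0.10, just short of 2-fold (adjusted p = 5.18e-05), and its difference from the probiotic arrays was -0.08 ± 0.08 (adjusted p = 0.502). CXCL10 had a difference from day 0 of 0.45. Of the 38 cytokines and chemokines on the list, only these 4 and 2 more had a kept probe in the outer blocks. Among other genes of the LPS response, SOD2 had a difference from day 0 of -0.31, short of 2-fold, and the outer ICAM1 probe was detected on none of the 9 arrays. Every probe of TNF, IL6, IL10, CCL4, CXCL8, PTGS2, JUN, TNFAIP3, S100A8 and S100A9 lay outside the outer blocks. The 1 probe of GRO1, a chemokine close to CXCL2, also lay in the middle; it read 0.19, 0.02 and 0.25 with LPS, -1.97, -2.09 and -2.09 without, and was undetected on day 0, values given without a test because the spike-in reading was uneven there. Other middle probes, also without a test, had no common direction. The S100A8 probe read -0.17, 1.01 and 1.16 with LPS and 2.28, 2.03 and 2.26 without. A CXCL8 probe was detected on 2 of 3 LPS arrays, at -3.84 and -3.38, and read -3.08, -3.45 and -3.26 without LPS. An IRF1 probe read -2.57, 0.40 and 1.16 with LPS and was undetected without. The outer CXCL2 probe follows, with that of BOLA-DQA5, the gene with the largest bound, both undetected on day 0.
CXCL2, outer blocks: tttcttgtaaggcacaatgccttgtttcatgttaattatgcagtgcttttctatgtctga
BOLA-DQA5, outer blocks: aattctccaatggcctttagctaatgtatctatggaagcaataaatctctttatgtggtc

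**Figure D3:**
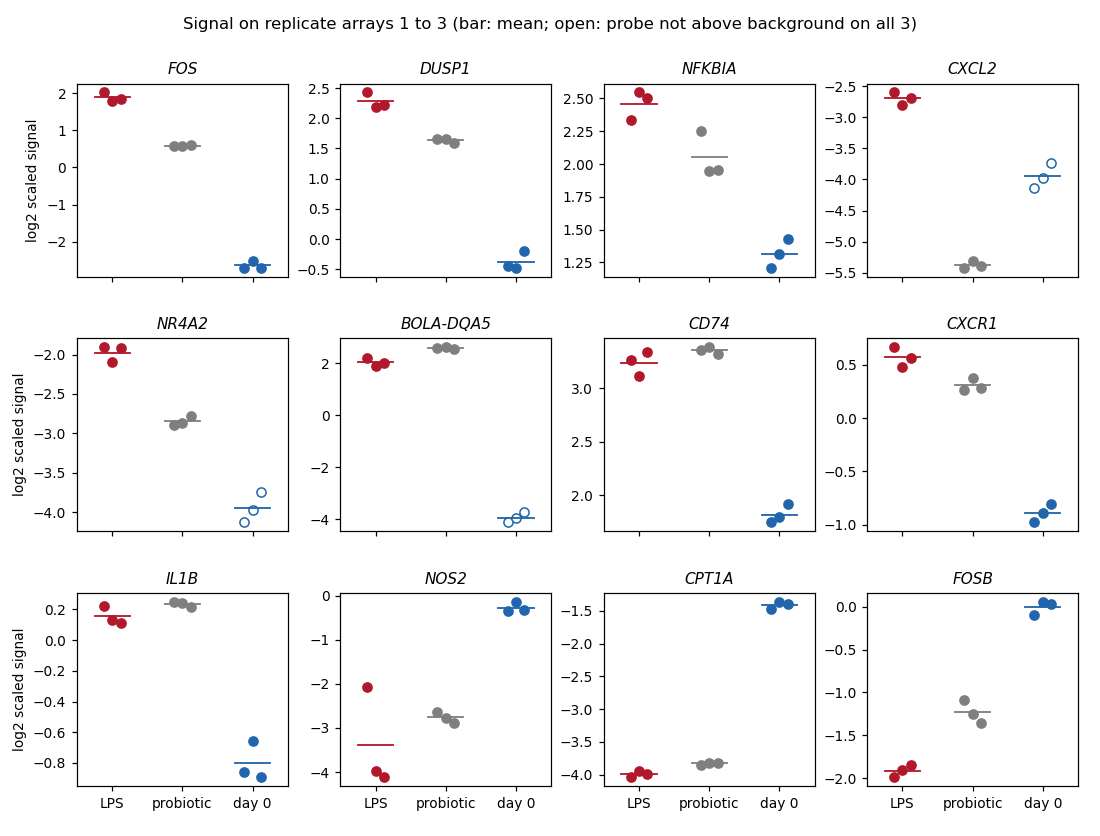
Log2 scaled signal of 12 genes on replicate arrays 1 to 3 of the LPS (red), probiotic (grey) and day 0 (blue) groups, with a bar at each mean; open points are probes not above background on all 3 arrays, drawn at the floor where they were below it. The LPS points of FOS, DUSP1, NFKBIA and NR4A2 lie above the probiotic points, and these above day 0, CXCL2 is separated by LPS, and CD74, IL1B, CPT1A and BOLA-DQA5 differ mainly between day 0 and the later groups.

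Genes of MHC class II antigen presentation, in which DQ and DR molecules carry peptides on B cells, monocytes and dendritic cells, held the largest bound. BOLA-DQA5 read 2.21, 1.89 and 2.03 on LPS arrays and 2.60, 2.63 and 2.55 on probiotic arrays, and was below detection on all 3 day 0 arrays. LPS was thus at least 63.7-fold above the day 0 floor. Its probe was kept through the LPS arrays only and its day 0 values are floor values, so the bound is given without a p-value. CD74, the invariant chain that guides class II molecules, had 3.26, 3.11 and 3.34 with LPS against 1.75, 1.79 and 1.92 on day 0 (2.67-fold, adjusted p = 8.71e-06). BOLA-DQA1 was 2.64-fold higher than on day 0, while BOLA-DQB1 (0.92), RFX5 (0.80) and BOLA-DRB3 (0.32) did not reach 2-fold. In all, 2 of 12 detected class II genes rose, none fell, and the median was 0.34, beside 3.34% rises and a median of 0.07 over all 4192 genes. None of 9 MHC class I genes passed. Replicate 4, which the fit did not use, differed in sign for BOLA-DQA1, with -2.22 between its LPS and day 0 arrays.

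Markers of blood cell types varied without a common direction. CXCR1, the interleukin-8 receptor of neutrophils, had 0.67, 0.48 and 0.56 with LPS against -0.98, -0.89 and -0.80 on day 0 (2.75-fold, adjusted p = 7.51e-06). It was 1 riser among 6 detected neutrophil markers, and the calgranulin S100A12 lay lower without passing, at 4.23, 4.32 and 4.53 with LPS and 5.08, 5.24 and 5.19 on day 0. PADI4, which citrullinates histones in neutrophils, rose 2.56-fold with 2 of 3 day 0 arrays above background, and its log2 difference was 0.35 with normexp, under the limit. CD4, the helper T cell co-receptor, fell 2.48-fold, the only 1 of 11 T cell markers to pass. PAX5, the B cell lineage factor, fell 3.25-fold, 1 of 5 B cell markers. THBS1, a platelet granule protein, fell 2.67-fold, 1 of 3 platelet markers. No monocyte, natural killer or erythroid marker passed (6, 5 and 3 detected). Beside these counts, 3.34% of all 4192 genes rose and 9.3% fell. Summed linear signal of the neutrophil list was 32.5 to 36 on LPS arrays and 44.7 to 49.0 on day 0 arrays, that of the T cell list 20.2 to 24.2 and 25.8 to 28.2, and that of the erythroid list 30.9 to 33.7 and 21.8 to 25.8. The brightest or most changed member weighs most in such a sum (S100A12, CD4 and the beta-globin gene HBB), and the median log2 differences of these lists were 0.26, 0.25 and -0.03. Their part in the gene results was not tested.

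Genes of lipid metabolism differed in both directions. CPT1A, which admits fatty acids to mitochondria, read -4.04, -3.94 and -3.99 with LPS against -1.47, -1.36 and -1.39 on day 0, 6-fold lower (log2 difference -2.59 ± 0.09, adjusted p = 1.04e-06). ABCG1, a cholesterol exporter, fell 4.05-fold. ALOX15, a lipoxygenase abundant in eosinophils, rose 2.46-fold, with replicate 4 opposite at -1.06. The list of 15 had 1 rise, 2 falls and a median of 0.48, beside 3.34% rises and 9.3% falls over all genes. In glycolysis PGK1 rose 2.42-fold, the only 1 of 7 to pass, with a log2 difference of 0.91 under normexp and 0.98 with the percentile over all probes, under the limit. Among apoptosis regulators, the initiator caspase CASP8 fell 2.81-fold and the pore-forming BAX 2.24-fold, 2 of 8, beside 9.3% falls over all genes. Of interferon-stimulated genes, OAS1Y, a sensor of viral RNA, rose 2.76-fold and IFITM1, which blocks viral entry, fell 2.32-fold, with the other 8 not passing. The shares over all genes, 3.34% rises and 9.3% falls, stand beside these counts and that of glycolysis.

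None of 18 heat shock proteins and none of 37 oxidative phosphorylation subunits passed, with medians of -0.06 and -0.02. PSMA4 alone of 13 proteasome subunits fell (2.20-fold), beside 9.3% falls over all genes. Among the 41 detected cytosolic ribosomal proteins none passed either, yet 40 had a negative difference (-0.85 at the lowest) and the median was -0.51. Beside that shift, genes with a mean log2 scaled signal over 2 had a median of -0.27 (292 genes). After cyclic loess and quantile normalization, which even out differences along signal level, the ribosomal median was -0.07 and 0.00. It was 0.30 when the spike-in set the scale. The part of signal level in the ribosomal shift was not tested. Antimicrobial proteins had a median of -0.77 over 8 genes (-0.85 with cyclic loess, 0.03 with the spike-in), and the beta-defensin DEFB7 fell 2.05-fold, just past the limit: its log2 difference was -0.96 with normexp, -0.997 without day 0 replicate 2 and -0.97 without day 0 replicate 3, none of which passed. In the actin and migration list, the integrin subunit ITGAL rose 2.43-fold (log2 difference 0.30 with normexp and 0.98 with cyclic loess or the percentile over all probes, under the limit), and the actin capping protein CAPG and the talin gene TLN1 fell 2.5-fold and 2.88-fold. Of 4 outer TLN1 probes, 2 had differences of -1.52 and -1.38 and the others 0.25 and 0.30.

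**Figure D4:**
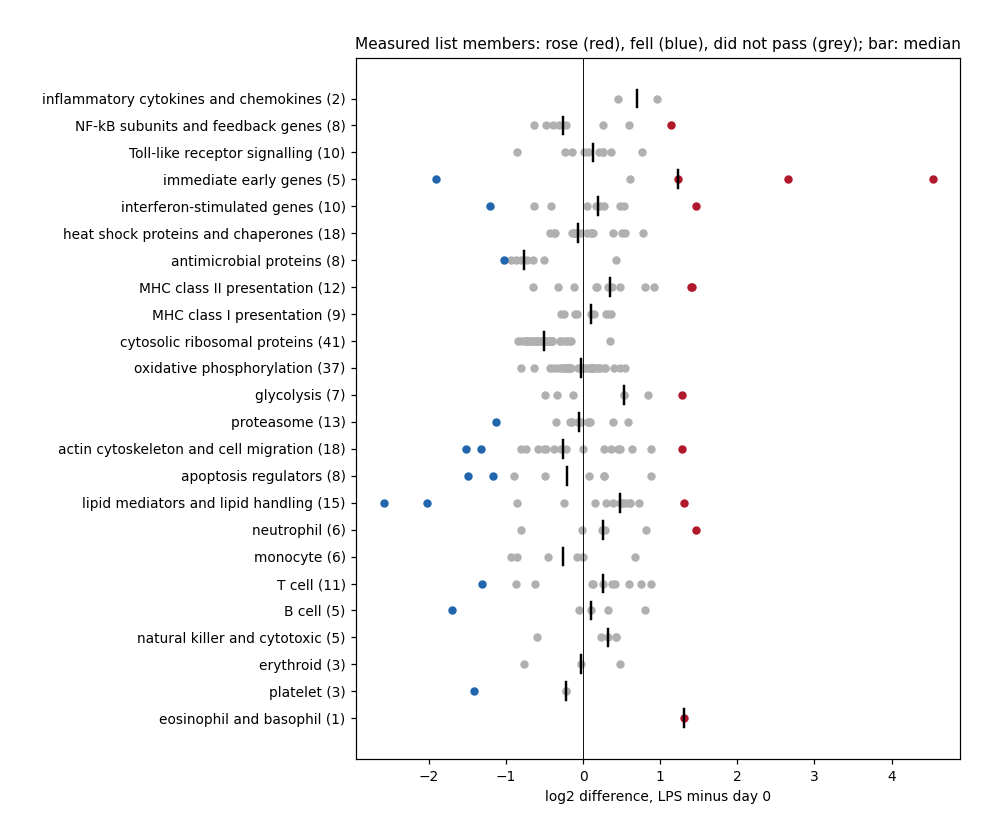
Log2 difference, LPS minus day 0, of each list member detected on all 6 arrays in the outer blocks, one row per list with its number of detected members; red points rose, blue points fell, grey points did not pass, and the black bar is the median. The immediate early list spans the widest range, from FOSB to FOS, and the ribosomal points lie mostly left of 0.

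The largest rises and falls lay mostly outside these lists. Among genes with a symbol detected on all 6 arrays, FOS and DUSP1 were followed by BRMS1, a component of histone deacetylase complexes, with -0.56, -1.15 and -1.55 on LPS arrays against -3.61, -3.60 and -3.68 on day 0 arrays (5.82-fold). LOC513055 rose 4.54-fold, and the 8 next, TMEM88, YIF1B, RPRD1A, VMP1, NMRAL1, LRRC47, SLMAP and JMJD7, rose between 3.03-fold and 3.39-fold; VMP1 acts in autophagy and RPRD1A binds the tail of RNA polymerase II. Below background on day 0 and above it with LPS were also TUBA1D (an alpha tubulin, at least 9.20-fold), DAGLA, FOXR2, HTR1B (a serotonin receptor), SPEG and NEFH (a neurofilament subunit, at least 4.28-fold).

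The largest fall was that of OC90, a matrix protein of inner ear otoconia, whose probe read -4.09, -4.76 and -4.80 on LPS arrays and -0.09, 0.02 and -0.07 on day 0 arrays (22.6-fold lower, adjusted p = 1.42e-06). PRRC2C fell 12.7-fold. NOS2, the inducible nitric oxide synthase that macrophages switch on after LPS, read -2.08, -3.99 and -4.11 with LPS and -0.35, -0.13 and -0.32 on day 0, 8.73-fold lower; LPS replicate 1 lay well above the other LPS arrays. Next came KCNF1, a potassium channel subunit (8-fold), MFSD3, the kinase CSNK1A1 (6.56-fold), ENPP6, PRRG3, GIPR, the receptor of an incretin hormone, GDF7 and C7H19orf80 (5.81-fold). A second PRRC2C probe had a difference of 0.15, and a second HTR1B probe one of -0.57. Over all called genes with more than 1 detected outer probe, the probes shared a sign in 30 of 45, against 351 of 573 over all genes with more than 1 such probe. The GC content of the probes had a median of 41.7% among genes that rose, 48.3% among those that fell and 43.3% among the rest.

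The pair of replicate 4 arrays gives values for the called genes that the fit had not used. Of the 185 falling genes detected on both, 152 were lower on the LPS array, and of 25 rising genes 18 were higher on it. Among 1376 genes that did not pass, 864 were lower and 512 higher. DUSP1 had a difference of 2.22, CXCR1 1.97, NFKBIA 1.21, FOSB -1.30 and CD4 -1.16 in this pair. BOLA-DQA1 and ALOX15, which rose in the fit, were lower on the LPS array of the pair, as given above. Over all 1586 genes detected on both arrays the median difference was -0.43.

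Both steps of the comparison were then set side by side in a fit of 9 arrays: LPS against probiotic, and probiotic against day 0. They share the probiotic arrays with each other and the LPS or day 0 arrays with the contrast above, and genes called there must differ in at least 1 step, so the medians below are a description. For LPS against probiotic, 47 of 6188 genes rose (0.76%) and 14 fell (0.226%). For probiotic against day 0, 213 rose (3.44%) and 278 fell (4.49%). The 6188 genes were kept for detection on all LPS or all day 0 arrays. A probe detected on the probiotic arrays alone thus could not enter, as a fall with LPS or as a rise over day 0. Both splits into rises and falls are therefore limited by this filter. A rise over probiotic did not require detection on the probiotic arrays. Among such risers, RNF31, NXPE4 and B3GNT3 were detected on 2 of 3 probiotic arrays and INTS10 on none. Their LPS and day 0 means differed by 0.03, 0.25, -0.04 and 0.29. Over the 140 genes that rose in LPS against day 0 and were detected in all 3 groups, the median log2 difference was 0.09 for LPS against probiotic and 1.14 for probiotic against day 0, and 3 and 97 of them passed. Over 388 falling genes the medians were -0.36 and -1.09, and 5 and 237 passed. Over all 4170 genes detected in the 3 groups the medians were -0.08 and 0.13.

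FOS passed in both steps, higher by 1.30 ± 0.09 with LPS over probiotic (adjusted p = 0.000103) and by 3.23 ± 0.09 with probiotic over day 0 (adjusted p = 3.02e-08). DUSP1 had 0.64 ± 0.10 and 2.01 ± 0.10, NFKBIA 0.41 ± 0.11 and 0.73 ± 0.11, and BRMS1 1.18 ± 0.22 and 1.36 ± 0.22. RGS1, a brake on G protein signalling in lymphocytes, was 2.22-fold higher with LPS than without, and the linker histone gene H1-3 3.87-fold, both with day 0 below detection. GTF2E1, a general transcription factor, read -1.81, -1.84 and -1.85 with LPS, against -3.13, -3.09 and -3.15 without it and -2.89, -2.74 and -2.71 on day 0. CD74 (-0.11 ± 0.08), CPT1A (-0.16 ± 0.07), TLN1 (-0.08 ± 0.08) and CD4 (-0.06 ± 0.12) showed no difference past the threshold between LPS and probiotic. VMP1 and BOLA-DQA1 stood above day 0 and yet 0.63 and 0.52 log2 units lower with LPS than without it, short of 2-fold. XRN2, an exonuclease, fell in both steps, by 1.04 with LPS and by 1.01 before it. MATK had the largest LPS difference, 4.23 ± 0.57, but only 1 of 3 probiotic arrays detected its probe, and its LPS and day 0 means differed by 0.15.

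**Figure D5:**
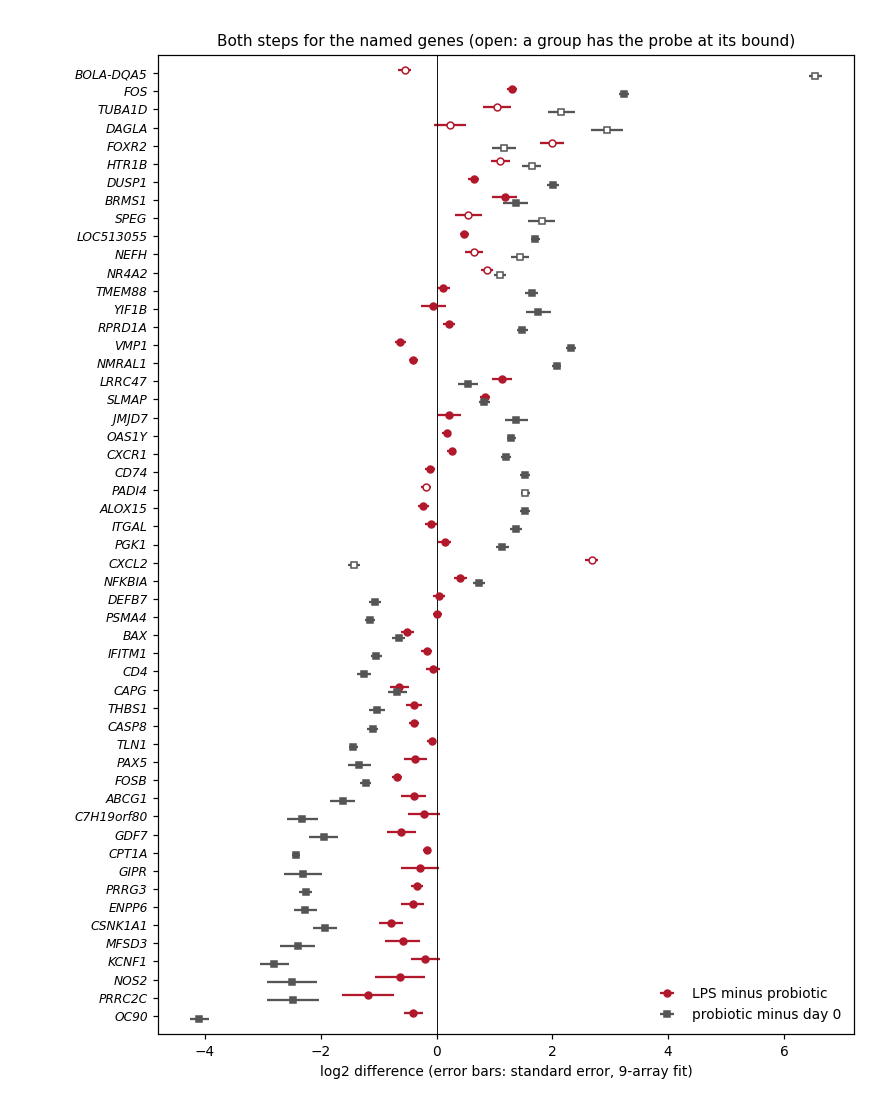
Log2 difference with its standard error for the 53 named genes that passed for LPS against day 0, ordered by that contrast: LPS minus probiotic (red circles) and probiotic minus day 0 (grey squares), from 1 fit of 9 arrays; open symbols have a group below detection. Most grey squares lie farther from 0 than the red circles, with CXCL2, FOXR2 and LRRC47 among the exceptions.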

How the data were processed

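Each sample's deposited scanner file was made with Agilent Feature Extraction 10.10.1.1, per the submitters' processing notes and the file headers; its intensity values carry no normalization between arrays. The background-subtracted intensity was used, since the authors' processed intensity had been multiplied by a position-dependent factor on LPS replicate 4 and day 0 replicates 2 to 4. The authors' deposited log2 averages were not used for LPS against day 0. Their differences matched the processed signals within LPS and probiotic (r = 0.99994 over 43653 probes) and within untreated and day 0 (r = 0.99999), but not across (r = 0.447). The averages thus appear to hold 2 separate centrings, which was not tested. The 1417 control spots and outlier-marked spots were left out. Signals under the lowest detected signal of an array were set to it. A probe was kept if detected on all arrays of 1 group, and the brightest kept probe stood for its gene. A rise was counted only if LPS arrays, and a fall only if day 0 arrays, all detected the probe. In the outer blocks this set aside 707 falls whose LPS signal met only the higher day 0 floor. Probes were named through accessions and symbols of a bovine RefSeq table (26909 by accession, 6519 by current and 131 by older symbol, with 1387 keeping the file's symbol and 8707 unnamed). lmFit and eBayes of limma 3.58.1 (R 4.3.3) gave two-sided tests; code was tested on simulated data. Figures used matplotlib 3.10.9.

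Named genes were the 12 largest rises and falls detected on all arrays, the 8 largest bounds, 24 genes of the LPS response and, per list, the 2 with the lowest adjusted p in each direction; a rule written for the fit of 8 arrays was carried over to the outer blocks. Genes named for their steps were chosen after their values were seen. Members, lists and tests were chosen with earlier results of these data known. Replicate numbers are given by the titles. Over 8 arrays, same-numbered arrays deviated together (r from 0.33 to 0.76), as did replicates 1 to 3 with differing numbers; over replicates 1 to 3 in the outer blocks r was -0.08 to 0.00. The number of arrays limits precision.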

Additional observations from a re-analysis of the deposited data

Results flagged for a closer look

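Replicate 4 lay outside the other 3 arrays by Dixon's criterion for 4 values, which chance meets in about 1 group in 20. The percentile that scales an array over 8 arrays was 957 scanner units on LPS replicate 4, against 7539 to 8388 on the others, and 315 units on day 0 replicate 4, against 1587 to 1814 on the others. The spike-in median in the outer blocks was 5740 units on LPS replicate 4 and 13176 on day 0 replicate 4. In day 0, the floor of replicate 4, at -3.03, stood above the other arrays for 3 of the 4 genes that passed over 8 arrays, BOLA-DQA5 among them. Of the genes detected on all 6 other arrays, 2205 of 4183 in LPS and 2237 of 4189 in day 0 had replicate 4 outside the rest, against at most 8 for any other replicate. Which property of replicate 4 sets it apart was not tested.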

How the results depend on the processing

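Counts over the 8 arrays moved with most choices. The 4 genes that passed became 1 with the authors' position-corrected signal, 1 with normexp (on median signal and background, as the mean signal is not used here), 18 with the percentile over all probes, 9 with the median of detected probes, 163 with quantile normalization, 13 with block medians removed, 216 with a floor of 1 scanner unit, 188 with the replicate block, 1050 with array weights, 45 with all groups in 1 fit and 0 with no filter on dim probes. The direction of these calls varied too. Rises and falls were 73 and 115 with the replicate block, 506 and 544 with array weights and 2 and 2 with cyclic loess. They were 156 and 7 with quantile normalization and 206 and 10 with the floor of 1 unit. Leaving out 1 array gave 0 to 438, with 438 without LPS replicate 4, 13 without day 0 replicate 4, 1 without day 0 replicate 1 and 0 without any of the other 5. Without replicate 4 of both groups it was 1011 on the same probes and 1406 with probes chosen again. Among genes detected on all 8 arrays the count of 0 became 7, 1, 1, 9, 4, 10, 121, 395 and 15 under the percentile over all probes, median, cyclic loess, quantile, block medians, floor, replicate block, array weights and 1 fit, 3 with detection on all arrays required, 0 to 215 leaving out 1 array, and 660 or 858 without replicate 4. For list and marker genes the count of 1 became 0 (normexp, either filter), 3 (percentile over all probes, median, block medians), 26 (quantile), 25 (floor), 15 (replicate block), 85 (array weights), 8 (1 fit), 0 to 40 leaving out 1 array and 77 or 98 without replicate 4.

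Without replicate 4, 1406 became 34 with the position-corrected signal, 2177 with quantile normalization (1109 higher and 1068 lower), 2416 with the floor of 1 unit (1534 and 882), 2110 with array weights (936 and 1174), 921 with detection on all arrays required, 1725 with the percentile over all probes (332 and 1393), 1210 with normexp (194 and 1016) and 1146 to 1618 leaving out 1 more array. In the outer blocks 530 became 1 with the position-corrected signal, 1798 with spike-in scaling, 0 with all 8 arrays, 453 with normexp (52 and 401) and 517 to 595 leaving out 1 array; the replicate block gave 531. For LPS against probiotic over 12 arrays, 72 became 42 with the position-corrected signal and 43 with quantile normalization. For probiotic against day 0, 165 became 2040, 439, 351, 344 and 447 with the position-corrected signal, the percentile over all probes, cyclic loess, quantile normalization and the replicate block, and 491 in the outer blocks. The difference in detected spots was 19.8 points by the scanner's other detection call and 20.4 without LPS replicate 4 (exact permutation p = 0.0286 for both), and 13.2 to 20.4 leaving out 1 array.

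Of 1299 repeats over 53 called genes, 1166 kept direction and call, 129 kept direction only and 4 reversed: DEFB7 at 0.034 and BAX at 0.050 with the position-corrected signal, HTR1B at -0.57 with detection on all arrays required and TLN1 at 0.30 with blocks at 40% detection, the last 2 through another probe. Most of the losses came from 2 settings. With all 8 arrays on the same outer probes, 1 of the 53 genes kept its call and 52 kept direction only. With the position-corrected signal, 1 kept its call, 50 kept direction only and 2 reversed. The causes of the other shifts were not tested. LPS against day 0 was not run on the authors' averages, which appear to hold 2 separate centrings.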
